A study of Mus musculus with 25 samples.

Results

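Oncofetal liver genes are active in the embryonic liver, silent or nearly so in the adult organ, and often expressed again in liver cancer. The set described here holds 10 genes chosen by name from the 24984 genes of the count table: Afp, H19, Dlk1, Igf2bp1, Igf2bp2, Igf2bp3, Lin28b, Hmga2, Hmga1 and Epcam. All 10 were found in the table, and the rule that names them uses no measured value, although Hmga1 is among the genes that the study listed as changed on these same samples.

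The parental cells were BMEL cells, a clonal line of bipotential progenitors from mouse embryonic liver that can take the hepatocyte or the bile duct fate. RNA was sequenced from 3 cultures each of BMEL cells with the empty vector, of RasLOW cells and of RasHIGH cells, and the Ras populations carried H-Ras G12V on a vector with a fluorescent reporter and were sorted by its intensity. The other 16 libraries came from 4 athymic nude mice, which lack most T cells, that had received Ras-expressing cells in the liver: reporter-positive tumour cells and reporter-negative stromal cells were sorted from the liver tumour and from the peritoneal tumour of each mouse. The sample labels do not say which Ras population had been injected, and cultured and tumour-derived libraries also differ in dissociation, sorting and mostly in sequencing lane, which cannot be told apart from growth in the mouse. Among the cultures, empty vector replicates 1 and 2 ran in lane 3, and empty vector replicate 3 and all Ras cultures in lane 4. Lane and Ras can therefore not be fully told apart in culture. All tumour-derived libraries ran in lanes 1 to 3, so the tumour cells shared no lane with the RasHIGH cultures they were compared with.

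The members belong to several systems. Afp encodes alpha-fetoprotein, the main plasma protein of the fetus, and is read together with the albumin gene Alb beside it. H19, a long noncoding RNA, and Dlk1, a Notch-like membrane protein of hepatoblasts, are imprinted genes, read from one parental copy. Igf2bp1, Igf2bp2 and Igf2bp3 bind and stabilise mRNAs, among them that of the fetal growth factor Igf2. Lin28b blocks the maturation of let-7, a microRNA family that marks differentiated cells, and Hmga2, Hmga1 and the Igf2bp genes are known let-7 targets. Hmga2 and Hmga1 encode chromatin proteins that bind AT-rich DNA, and Epcam encodes an adhesion protein of hepatoblasts and bile duct cells.

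The let-7 sequences are shown because they link most of the coding members. The 8 mouse let-7 microRNAs looked up in RefSeq shared bases 2 to 8, the seed, printed in capitals in 3 examples.
mmu-let-7a-5p: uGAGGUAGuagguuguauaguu
mmu-let-7d-5p: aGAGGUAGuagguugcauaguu
mmu-let-7i-5p: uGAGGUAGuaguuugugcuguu
The reverse complement of the seed, CTACCTC, was searched on the sense strand of the annotated 3′ UTRs (GENCODE vM1, mm9). It was found 4 times each in Hmga2, Lin28b and Igf2bp1 and once each in Igf2bp2, Igf2bp3 and Hmga1, and not in Afp, Dlk1 or Epcam. Over 17220 genes with an annotated 3′ UTR, 9.12% held at least 1 such match and 0.134%, or 23 genes, held 3 or more; among the 3188 genes with 3′ UTRs of 2000 to 4000 bases, 17.3% held at least 1. One match with its flank is given for each of 5 genes, with the match in capitals.
Hmga2: gccgacattcaatttCTACCTCa
Lin28b: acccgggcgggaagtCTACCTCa
Igf2bp1: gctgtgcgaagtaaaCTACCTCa
Igf2bp3: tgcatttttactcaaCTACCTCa
Hmga1: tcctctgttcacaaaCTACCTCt
They lie at chr10:119801280-119801302 for Hmga2, chr10:45100828-45100850 for Lin28b, chr11:95823092-95823114 for Igf2bp1 and chr6:49036786-49036808 for Igf2bp3 on the minus strand, and at chr17:27700222-27700244 for Hmga1 on the plus strand of mm9. A match describes these letters only, and microRNAs were not measured in these mRNA libraries.

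Total counts lay between 20818989 and 51241336 per library, so that 3 counts corresponded to 0.0585 to 0.144 CPM (counts normalised to the TMM-scaled library size), a limit that covers counting error only. Summed epithelial markers were 6918 to 10769.6 CPM in cultures and tumour cells and 669 to 1546 CPM in stroma, whereas summed leukocyte markers were at most 225 CPM outside the stroma and 5477 to 9024 CPM in it. The epithelial sum of the stroma was 15.1% to 16.8% of that of the tumour cells of the same liver tumour and 7.20% to 11.96% in the peritoneal tumours. The tumour cells of the peritoneal tumour of mouse 1 stood apart, with 1517 CPM of fibroblast markers against 219 to 336 CPM in the other 3. The mouse gene Hras stood at 79.9 ± 7.9 CPM in empty vector and at 66.9 ± 15.2 CPM in RasHIGH libraries (SD, n = 3). Whether reads from the Ras vector were counted under that name is not given in the sources used here.

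**Figure D1:**
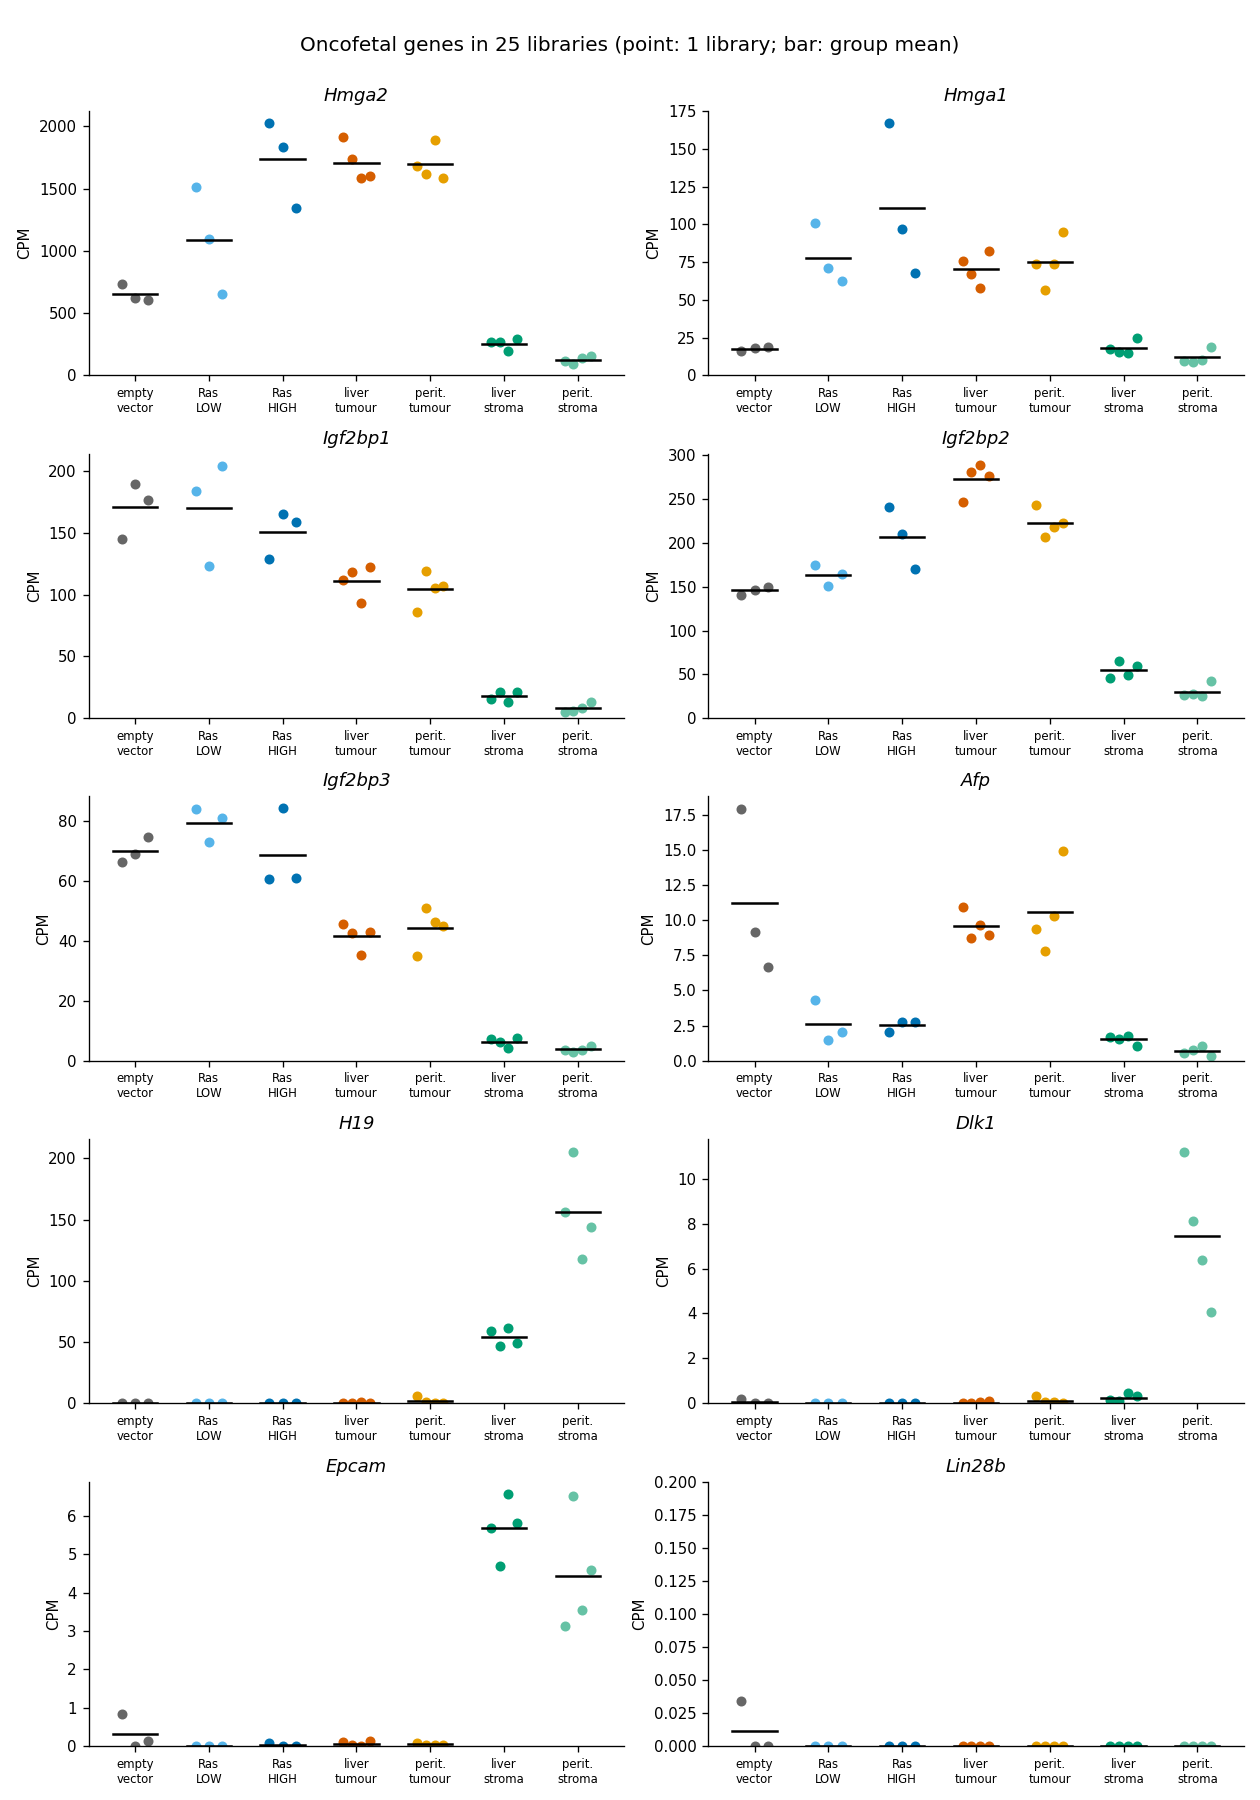
Level of each oncofetal gene (CPM, linear axis from 0, own scale per gene) in the 7 groups, with 1 point per library and a bar at the group mean (perit., peritoneal). Hmga2, Hmga1, the Igf2bp genes and Afp were lowest or near lowest in the stroma, H19 and Epcam were highest there, Dlk1 stood out in the peritoneal stroma, and Lin28b had 1 count in 1 library.

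Hmga2 was the most abundant member in 6 of the 7 groups when counts were divided by exon length. It reached 96.6 ± 10.3 CPM per kb with the empty vector, 257 ± 52 CPM per kb in RasHIGH cells (SD, n = 3) and 252 ± 23 CPM per kb in liver tumour cells (SD, n = 4), and no library of these groups overlapped with the next member. In the empty vector cultures Igf2bp2, Igf2bp1 and Igf2bp3 followed at 20.4, 17.6 and 16.1 CPM per kb, then Hmga1 at 8.85 and Afp at 5.39 CPM per kb, and the ranges of Igf2bp1 and Igf2bp3 and those of Hmga1 and Afp overlapped. In both Ras cultures Hmga1 stood second, at 39.2 and 55.6 CPM per kb, ahead of Igf2bp2 in every library. In the peritoneal stroma the order changed: H19 came first at 65.7 ± 15.5 CPM per kb, without overlap with Hmga2 at 18.4 ± 4.4 CPM per kb (SD, n = 4).

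Which oncofetal genes differed with oncogenic Ras was asked in culture. Hmga1 and Hmga2 were higher and Afp was lower in RasHIGH cells than with the empty vector, whereas none of the 3 Igf2bp genes passed the test. Of the 10 members, 6 passed the filter on low counts; 2 were called higher and 1 lower (edgeR quasi-likelihood test, adjusted p under 0.05), where 10.9% of the 12331 genes tested were called higher and 11.7% lower. The median log2 fold change was 0.20 over the 6 members and -0.02 over all genes tested. RasLOW cells were compared with the same 3 empty vector libraries, so the comparisons are not independent: 1 of 6 members was called higher and none lower (1.92% and 4.05% of 12307 genes), with medians of 0.14 and 0.01.

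Hmga1 (chr17:27693565-27700619, mm9, plus strand) was at 15.8, 18.4 and 18.6 CPM with the empty vector, at 101, 71.3 and 62.2 CPM in RasLOW and at 167, 97.3 and 67.5 CPM in RasHIGH cultures. All 6 Ras cultures were above all 3 controls, and the Ras groups overlapped. The log2 fold change against the empty vector was 2.11 ± 0.20 in RasLOW (SE, adjusted p = 0.00416) and 2.61 ± 0.32 in RasHIGH cells (adjusted p = 0.00213). The gene AI413582 overlaps the end of Hmga1 on the opposite strand, and the strand setting of the counting is not given; it held 5.71 to 11.2 CPM in the cultures and was not called in these comparisons.

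Hmga2 (chr10:119798331-119913525, minus strand) was at 735, 619.9 and 608 CPM with the empty vector, at 1512, 1092 and 657 CPM in RasLOW and at 2029, 1838 and 1347 CPM in RasHIGH cultures. RasHIGH lay above the controls in every library, by a log2 fold change of 1.37 ± 0.18 (adjusted p = 0.00284), while the RasLOW cultures ranged from near the control level to that of RasHIGH cells. In RasLOW the log2 difference was 0.70 ± 0.28 with an adjusted p of 0.209. Direct comparison of RasHIGH with RasLOW gave 0.68 ± 0.32 for Hmga2 and 0.50 ± 0.34 for Hmga1, and 0 of 6 members were called by edgeR, 0 at an unadjusted p under 0.05 and 0 by DESeq2 (0.0585% of 11962 genes called higher and 0.0167% lower by edgeR).

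Afp (chr5:90919740-90937933, plus strand) was at 17.9, 9.17 and 6.65 CPM with the empty vector, at 4.30, 1.46 and 2.06 CPM in RasLOW and at 2.02, 2.78 and 2.78 CPM in RasHIGH cultures. No Ras culture reached the lowest control. The log2 fold change was -2.19 ± 0.41 in RasHIGH (adjusted p = 0.0101) and -2.15 ± 0.52 in RasLOW cells, the latter with an adjusted p of 0.0552; it was 0.000396 with DESeq2 and 0.0465 without RasLOW replicate 2. The sum of the hepatocyte markers moved in the same direction. It lay at 15.6 to 58.3 CPM in the controls, 1.67 to 5.44 CPM in RasLOW and 0.987 to 2.66 CPM in RasHIGH cultures. Only 2 of the 9 markers passed the filter on low counts in each comparison. Apoc3 and Cps1 were at 0 in the controls but not in RasHIGH cultures, so not every marker followed the sum. Apoc3, Fga, Fgb and Cps1 were at 0 in RasLOW, and Alb and Fga in RasHIGH cultures. The part of the hepatocyte markers in the result was not tested.

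None of the Igf2bp genes passed the test in culture. Igf2bp1 (chr11:95818477-95867254, minus strand) ranged from 123 to 204 CPM over all 9 cultures and Igf2bp3 (chr6:49035220-49164953, minus strand) from 60.8 to 84.2 CPM. Igf2bp2 (chr16:22059082-22163372, minus strand) was at 141, 146 and 149.8 CPM with the empty vector and at 241, 209.8 and 171 CPM in RasHIGH cultures, without overlap. Its log2 difference was 0.47 ± 0.14 with an adjusted p of 0.0555, which became 0.0375 with DESeq2 and 0.0276 without RasHIGH replicate 3. Etv5, which lies 218.0 kb from Igf2bp2, rose by a log2 fold change of 1.10 ± 0.23 in RasHIGH cells (adjusted p = 0.0153).

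The remaining members were barely detected in culture. Epcam had 24, 0 and 4 counts with the empty vector, 0 in each RasLOW culture and 2, 0 and 0 in RasHIGH cultures. H19 had 10, 4 and 2 counts in the controls and 1 count in all in each Ras group, and Dlk1 had 6 counts in 1 control culture and none in the other 8. Lin28b (chr10:45096426-45206201, minus strand) had 1 count, in empty vector replicate 1, and none in the other 24 libraries of the series. That replicate held the highest count of each of these 4 genes among the cultures. They did not pass the filter on low counts in these comparisons, so they were not tested, and a level below 3 counts per library is not detectable at this depth.

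**Figure D2:**
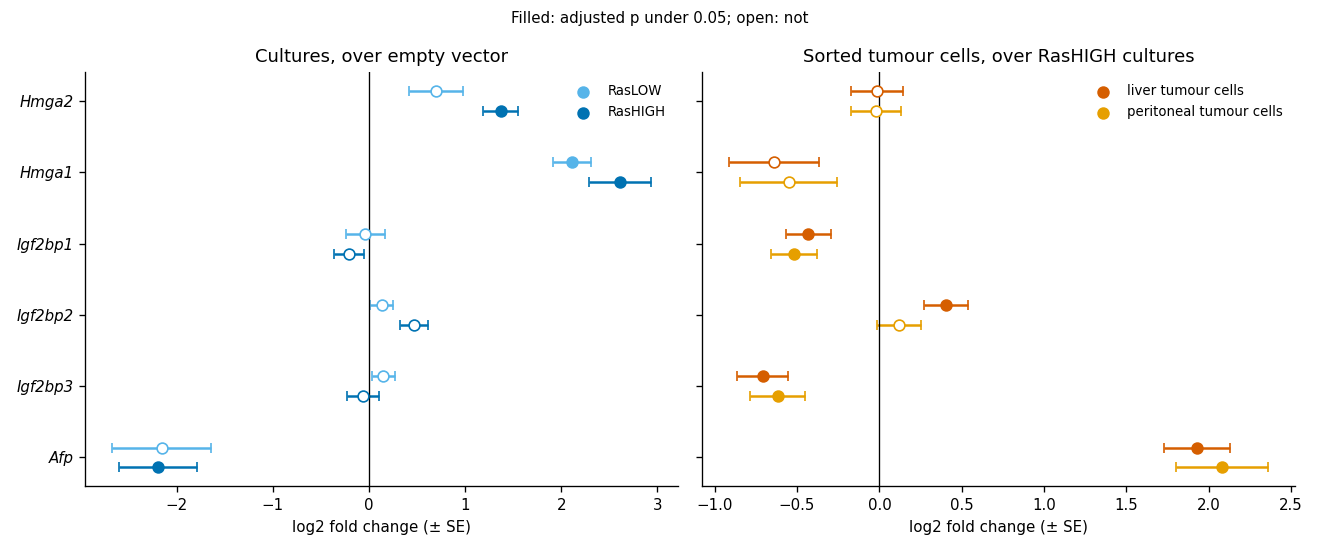
Log2 fold change (± SE) of the 6 detected members, at the left in RasLOW and RasHIGH cultures over the empty vector cultures and at the right in sorted tumour cells over RasHIGH cultures. Filled points passed an adjusted p under 0.05; Hmga1, Hmga2 and Afp passed in RasHIGH cells, and Afp at the right stood near 2 at both sites.

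Afp was higher in tumour cells than in cultured RasHIGH cells, while Igf2bp1 and Igf2bp3 were lower and Hmga2 had log2 differences below their SE. Liver tumour cells held 10.96, 8.70, 9.65 and 8.94 CPM of Afp in mice 1 to 4 and peritoneal tumour cells 9.39, 7.78, 10.3 and 14.9 CPM, all above the RasHIGH cultures and within the range of the empty vector cultures. The log2 fold change over RasHIGH was 1.93 ± 0.20 in the liver (adjusted p = 0.000141) and 2.08 ± 0.28 in the peritoneum (adjusted p = 0.00129). Both comparisons share the 3 RasHIGH libraries. Of the 7 members tested in each, 3 were called higher and 2 lower in liver tumour cells (23.0% and 22.1% of 12971 genes, medians -0.02 for the members and -0.01 for all genes), and 2 higher and 2 lower in peritoneal tumour cells (19.3% and 18.6% of 12791 genes, medians -0.02 and -0.01). H19, 1 of those called higher at each site, passed the filter on low counts through the tumour cells alone, so that its call was fixed by the filter.

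Hmga2 held 1918, 1737, 1583 and 1599 CPM in liver tumour cells and 1684, 1619.6, 1889 and 1587 CPM in peritoneal tumour cells, all within the range of the RasHIGH cultures. Its log2 difference from RasHIGH was -0.02 ± 0.16 in the liver and -0.02 ± 0.15 in the peritoneum. Hmga1 was at 57.7 to 82.3 CPM in liver and 56.6 to 95.0 CPM in peritoneal tumour cells, overlapping with both Ras cultures, with log2 differences of -0.64 ± 0.27 (adjusted p = 0.0867) and -0.55 ± 0.30 (adjusted p = 0.171) from RasHIGH. Without RasHIGH replicate 3 the former became -0.90 with an adjusted p of 0.0159.

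Igf2bp3 fell by 0.71 ± 0.16 on the log2 scale in liver tumour cells (adjusted p = 0.0061) and by 0.62 ± 0.17 in peritoneal tumour cells (adjusted p = 0.021) against RasHIGH, and its highest tumour library, at 50.9 CPM, lay below the lowest culture. Igf2bp1 fell by 0.43 ± 0.14 (adjusted p = 0.0295) and by 0.52 ± 0.14 (adjusted p = 0.0201), and Igf2bp2 rose by 0.41 ± 0.13 (adjusted p = 0.0356) in liver tumour cells, against a difference of 0.12 ± 0.14 in peritoneal tumour cells (adjusted p = 0.509). The calls of Igf2bp1 were lost in 5 of 7 fits that left out 1 library at each site, those of Igf2bp2 in 5 of 7 and that of Igf2bp3 in the peritoneum in 4 of 7, with adjusted p up to 0.0997, 0.12 and 0.0757. The calls were kept without RasHIGH replicate 1 in each case, and otherwise without liver tumour cells of mouse 4 or peritoneal tumour cells of mouse 2 for Igf2bp1, without liver tumour cells of mouse 1 for Igf2bp2, and without RasHIGH replicate 3 or peritoneal tumour cells of mouse 2 for Igf2bp3. The call of Igf2bp3 in liver tumour cells held in all 7 fits.

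H19 had 20, 16, 29 and 12 counts in liver tumour cells and 196, 40, 41 and 18 counts in peritoneal tumour cells, against 1 count in all 3 RasHIGH cultures. No fold or p is given against 1 count. H19 of the tumour cells amounted to 0.764% to 1.41% of the level in the stroma of the same liver tumour and to 3.89%, 0.526%, 0.663% and 0.460% in the peritoneal tumours of mice 1 to 4. Fibroblast markers of the tumour cells were at 0.479% to 1.49% of the stromal level in the liver and at 2.71%, 0.404%, 0.400% and 0.371% in the peritoneum. Leukocyte markers showed 3.24% in the peritoneal tumour of mouse 1 and 0.360% to 0.558% in the other 7 tumours. Endothelial markers of the tumour cells were at 17.7%, 9.12%, 30.8% and 10.8% of the stromal level in the livers of mice 1 to 4 and at 21.9%, 44.3%, 9.65% and 33.2% in the peritoneum. In the peritoneum mouse 1 was highest for H19, fibroblast and leukocyte markers and mouse 2 for endothelial markers, and in the liver mouse 3 was highest for H19 and endothelial markers and mouse 4 for the other two sums. The part of stromal RNA in these counts was not tested.

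The site of the tumour was compared within each cell type to ask whether liver and peritoneum differ. Among tumour cells, 0 of the 7 members tested were called by edgeR (1.33% of 13074 genes were called higher in the liver and 1.87% lower), 2 had an unadjusted p under 0.05 and 1 was called by DESeq2. Medians were -0.08 for the members and -0.01 for all genes. Igf2bp2 was at 247, 281, 289 and 276 CPM in liver and at 244, 207, 218 and 223 CPM in peritoneal tumour cells. The liver libraries were all above the peritoneal ones, with a log2 difference of 0.29 ± 0.08 and an adjusted p of 0.0821 that became 0.0152 with DESeq2 and 0.0351 without the peritoneal tumour cells of mouse 1. H19 showed a log2 difference of -2.01 ± 0.72 (adjusted p = 0.155), which shrank to -0.65 without that same library. Hmga2 differed by 0.01 ± 0.09 and Afp by -0.15 ± 0.19.

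Stromal cells differed between the sites in 7 of the 9 members tested, with Afp, the 3 Igf2bp genes and Hmga2 higher in the liver and H19 and Dlk1 higher in the peritoneum (14.9% of 14755 genes were called higher in the liver and 18.5% lower). The median log2 fold change was 0.70 over the 9 members and 0.02 over all genes. Dlk1 passed the filter on low counts almost only through the peritoneal stroma. In bulk samples a smaller share of a cell type and less RNA per cell cannot be told apart.

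Dlk1 (chr12:110691033-110701546, plus strand) was found almost entirely in the peritoneal stroma, at 11.2, 8.09, 6.38 and 4.09 CPM, against 6, 3, 13 and 8 counts or 0.107 to 0.449 CPM in the liver stroma. The groups did not overlap, and no fold or p is given for a gene that the filter kept through its high group. H19 (chr7:149761434-149764048, minus strand) was abundant in both stromas, at 59.0, 46.5, 61.5 and 49.0 CPM in the liver and 156, 206, 118 and 144 CPM in the peritoneum, a log2 fold change of -1.57 ± 0.17 (adjusted p = 0.000107). The microRNA gene Mir675 lies inside H19 and had 0 counts in every library. Summed fibroblast markers were likewise higher in the peritoneal stroma, at 55991 to 84088 CPM against 4171 to 8545 CPM in the liver stroma with no marker at 0 in either; their part in the result was not tested.

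Hmga2 was at 268, 271, 192 and 289 CPM in the liver stroma and at 115, 87.9, 137 and 157 CPM in the peritoneal stroma of mice 1 to 4. The liver libraries were all higher, and the log2 fold change was 0.99 ± 0.18 (adjusted p = 0.00282). Igf2bp1 gave 1.13 ± 0.29 (adjusted p = 0.0145), Igf2bp2 0.83 ± 0.18 (adjusted p = 0.00691), Igf2bp3 0.70 ± 0.23 (adjusted p = 0.0415) and Afp 1.15 ± 0.36 (adjusted p = 0.0347). The calls of Afp and Igf2bp3 were lost in 6 of 8 fits that left out 1 library, with adjusted p up to 0.0814 and 0.113; they were kept without liver stroma of mouse 4 or peritoneal stroma of mouse 3 for Afp, and without liver stroma of mouse 3 or peritoneal stroma of mouse 4 for Igf2bp3. Hmga1, at 14.6 to 24.5 CPM in the liver and 9.14 to 19.1 CPM in the peritoneal stroma, gave 0.52 ± 0.25 (adjusted p = 0.15), 0.55 with mouse as a block (adjusted p = 0.0104) and 0.80 without peritoneal stroma of mouse 4 (adjusted p = 0.0125). Epcam was at 5.69, 4.69, 6.57 and 5.81 CPM in the liver and at 3.13, 6.52, 3.54 and 4.604 CPM in the peritoneal stroma, overlapping, with a log2 difference of 0.32 ± 0.24 (adjusted p = 0.351).

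The stromal levels of these members were set beside those of keratins, which mark epithelial cells in general and not the tumour cells alone. Krt8, Krt18 and Krt19 in the stroma amounted to 13.2% to 16.3% of the level in the tumour cells of the same liver tumour and to 5.90% to 12.6% in the peritoneal tumours. The same share was 12.1% to 18.1% and 5.43% to 9.92% for Hmga2, 13.6% to 17.6% and 4.87% to 11.8% for Igf2bp1, 12.3% to 17.7% and 5.52% to 11.2% for Igf2bp3, and 12.1% to 18.6% and 2.13% to 9.85% for Afp. Higher shares were found for Igf2bp2, at 17.1% to 23.1% and 10.7% to 18.9%, and for Hmga1, at 22.8% to 29.7% and 13.3% to 20.1%. The epithelial markers themselves did not share one value: Cdh1, E-cadherin, stood at 34.9% to 44.6% in the liver and 17.5% to 37.0% in the peritoneum, above the keratins in every tumour. The keratins were also higher in the liver than in the peritoneal stroma, by log2 fold changes of 0.55 ± 0.16 for Krt8, 0.70 ± 0.14 for Krt18 and 0.86 ± 0.19 for Krt19 (adjusted p = 0.0259, 0.0046 and 0.00623), while Cdh1 gave 0.40 ± 0.14 (adjusted p = 0.0537). The part of tumour cell RNA in the stromal values was not tested.

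**Figure D3:**
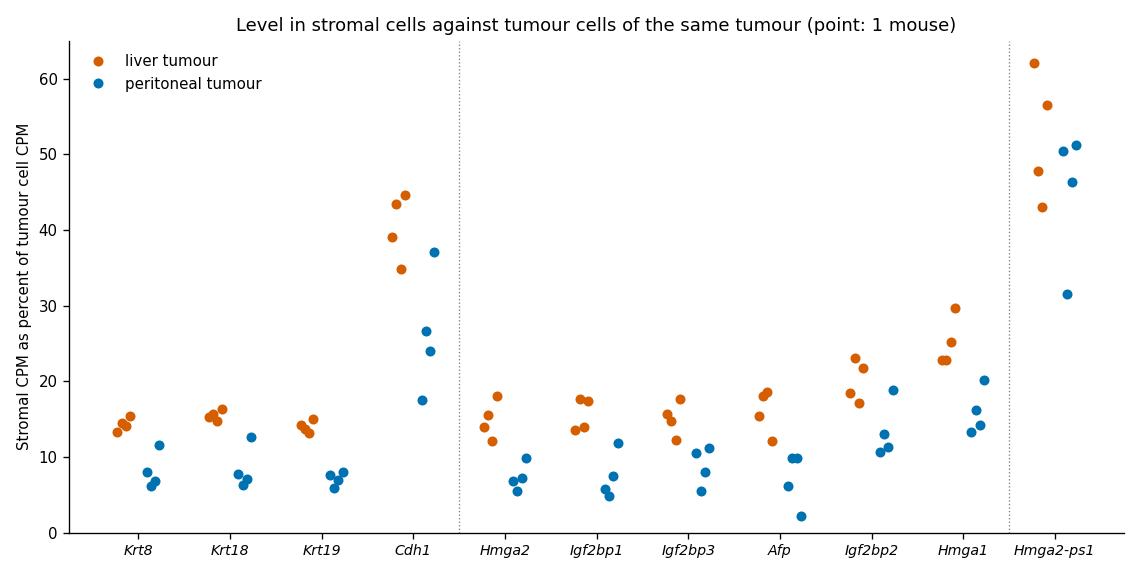
Level in stromal cells as a percent of the level in tumour cells of the same tumour (linear axis from 0), with 1 point per mouse, for liver and peritoneal tumours. Keratins at the left lay between 5.90% and 16.3% and Cdh1 beside them between 17.5% and 44.6%, Hmga2, Igf2bp1, Igf2bp3 and Afp between 2.13% and 18.6%, Igf2bp2 and Hmga1 up to 29.7%, and the pseudogene Hmga2-ps1 at the right between 31.5% and 62.0%.

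Tumour cells and stroma of the same tumours set the members apart most clearly. Hmga2, Hmga1, the 3 Igf2bp genes and Afp were higher in tumour cells at both sites, and H19 and Epcam were lower at both. Of the members, 8 were tested in the liver, with 6 called higher and 2 lower (38.4% and 39.4% of 14620 genes), and 9 in the peritoneum, with 6 called higher and 3 lower (39.5% and 37.1% of 14584 genes). The median log2 fold change was 2.48 over the 8 members and 0.00 over all genes in the liver, and 2.995 and 0.07 in the peritoneum. The calls of Hmga2, Hmga1, the 3 Igf2bp genes, Afp and H19 held in every fit that left out 1 library. Epcam at both sites and Dlk1 in the peritoneum passed the filter on low counts through the stroma alone, so that their lower calls were fixed by the filter. The counts of members called and the medians include them.

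Hmga2 was 6.71 times as abundant in the tumour cells as in the stroma in the liver (log2 fold change 2.75 ± 0.14, adjusted p = 4.8e-09) and 13.6 times in the peritoneum (3.87 ± 0.19, adjusted p = 1.05e-06). Afp gave 6.24 and 15.9 times, Igf2bp1 6.34 and 13.4 times, Igf2bp3 6.57 and 11.7 times, Igf2bp2 4.97 and 7.44 times, and Hmga1 3.96 and 6.17 times. The difference between sites was tested by an interaction term over the 16 libraries, in a fit without a term for mouse. There, 0 of 9 members were called higher and 4 lower (6.79% and 7.50% of 15331 genes, median -0.68 over the members and -0.12 over all genes). The 4 were Afp (-1.38 ± 0.38, adjusted p = 0.0251), Igf2bp1 (-1.11 ± 0.33, adjusted p = 0.0359), Igf2bp3 (-0.86 ± 0.26, adjusted p = 0.0365) and Hmga2 (-1.06 ± 0.22, adjusted p = 0.00522). Each of the 4 was called higher in the liver than in the peritoneum in stroma. In tumour cells none of the 4 was called between the sites, and Afp and Igf2bp3 had log2 differences of -0.15 and -0.09. Krt8, Krt18 and Krt19 had interaction values of -0.88, -0.95 and -0.99 (adjusted p = 0.0141, 0.00329 and 0.0124), and Cdh1 had -0.69 (adjusted p = 0.0323). Igf2bp2 (-0.62 ± 0.22, adjusted p = 0.0692) and Hmga1 (-0.68 ± 0.33, adjusted p = 0.189) passed with mouse as a block, at adjusted p of 0.0464 and 0.0183. Of 16 fits without 1 library, the call was lost in 0 for Hmga2, 5 for Afp and 12 each for Igf2bp1 and Igf2bp3; without the peritoneal stroma of mouse 2, where both latter values had their highest adjusted p, these were 0.104 and 0.11.

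H19 was 101 times as abundant in the stroma as in tumour cells in the liver (log2 fold change -6.65 ± 0.21, adjusted p = 8.82e-11) and 72.4 times in the peritoneum (-6.10 ± 0.76, adjusted p = 0.000101). Without the tumour cells of the peritoneal tumour of mouse 1 the latter value was -7.503. Dlk1 was tested only in the peritoneum, where tumour cells had 10, 2, 4 and 0 counts and the stroma 293, 170, 182 and 103 counts. Epcam (chr17:88035319-88050446, plus strand) had at most 5 counts in any tumour cell library and 82 to 212 counts in each stromal library, and no library of one kind reached the other. Other epithelial genes lay the other way: Krt8, Krt18, Krt19 and Cdh1 were each called higher in tumour cells than in stroma at both sites, Cdh1 by log2 fold changes of 1.33 ± 0.11 and 2.06 ± 0.17 (adjusted p = 3.96e-07 and 9.36e-06).

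**Figure D4:**
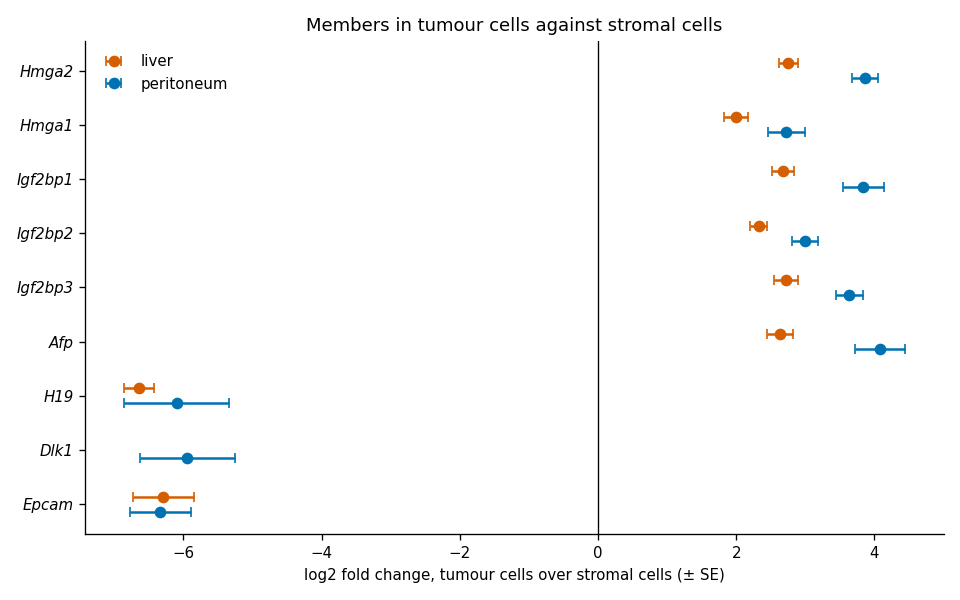
Log2 fold change (± SE) of tumour cells over stromal cells for 9 members, in liver and peritoneal tumours of 4 mice. Hmga2, Hmga1, the Igf2bp genes and Afp lay between 1.99 and 4.08, and H19 lay at -6.65 in the liver and -6.10 in the peritoneum. Dlk1 was tested only in the peritoneum and Lin28b at neither site. The points of Dlk1 and Epcam rest on tumour cell counts near 0, and the filter on low counts fixed their direction.

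Other imprinted genes were read from a list of 15, all in the table. In the liver 10 of the 15 tested were lower in tumour cells than in stroma and 3 were higher, with a median log2 fold change of -4.70, and in the peritoneum 12 of 14 were lower and 2 higher, with a median of -5.53 (medians of 0.00 and 0.07 over all genes, of which 39.4% and 37.1% were called lower and 38.4% and 39.5% higher). Igf2, the fetal growth factor 72.6 kb from H19, had at most 23 counts in any tumour cell library and was at 3.58 ± 1.77 CPM in the liver and 7.86 ± 2.22 CPM in the peritoneal stroma (SD, n = 4). The filter on low counts kept Igf2 through the stroma, so that its lower calls in tumour cells were fixed by the filter. The counts and medians of this list include Igf2, and how many other listed genes share this limit was not counted. Meg3, the noncoding RNA 77.7 kb from Dlk1, was at 58.2 CPM in the liver and 403 CPM in the peritoneal stroma, a log2 fold change of -2.83 ± 0.34 (adjusted p = 0.000195), and its neighbour Rian showed -3.03 ± 0.33. Peg3, a zinc finger gene, went the other way, at 80.0 and 65.7 CPM in tumour cells against 14.6 and 16.1 CPM in stroma. In culture 4 of 6 imprinted genes tested were lower in RasHIGH cells than with the empty vector and none higher (median -2.19 against -0.02 over all genes, of which 11.7% were called lower and 10.9% higher). Among them Peg3 went from 811 to 285 CPM and Ndn from 26.6 to 0.0299 CPM. Ndn passed the filter on low counts through the controls alone, so that its lower call was fixed by the filter. That call is included in the count and the median.

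**Figure D5:**
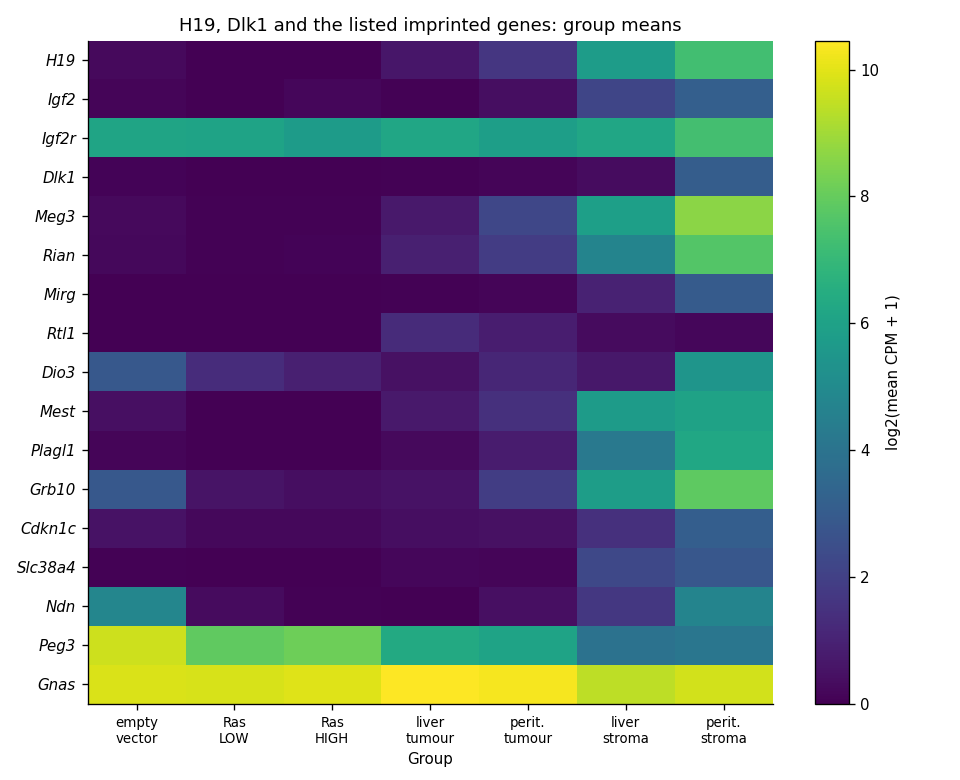
Group means as log2(mean CPM + 1) of H19, Dlk1 and 15 listed imprinted genes, ordered with the neighbours of H19 and Dlk1 first (colour scale at the right; perit., peritoneal). H19, Meg3, Rian, Mest, Plagl1 and Grb10 were brightest in the 2 stromal groups, whereas Peg3 was brightest in the cultures and Gnas was high in all 7 groups.

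The Lin28 and let-7 pathway was read from a further list of 12 genes, of which 10 were in the table. Lin28a, the paralogue of Lin28b, had a mean of 0 CPM in all 3 culture groups, 1.502 to 2.21 CPM in the liver stroma and 0.429 to 4.36 CPM in the peritoneal stroma. In RasHIGH against the empty vector 2 of the 9 tested were higher and 2 lower, where 10.9% and 11.7% of all genes were, with medians of -0.01 and -0.02 over all genes. Trim71, a ubiquitin ligase of embryonic cells and let-7 target, rose from 1.66 to 8.70 CPM (log2 fold change 2.35 ± 0.34, adjusted p = 0.004) and Arid3b rose by 1.06 ± 0.26 (adjusted p = 0.0253), while Arid3a fell by 1.11 ± 0.25 (adjusted p = 0.0211) and Mycn went from 1.29 CPM to no counts. Mycn passed the filter on low counts through the controls alone, so that its lower call was fixed by the filter. Liver tumour cells held 1.57 CPM of Trim71, below both RasHIGH cultures (-2.46 ± 0.20, adjusted p = 5.25e-05) and peritoneal tumour cells at 5.43 CPM (-1.78 ± 0.34, adjusted p = 0.0267).

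The genes beside Afp and its regulators made a list of 14. In RasHIGH cells 2 of 11 tested were higher than with the empty vector and none was lower (median 0.05 against -0.02 over all genes, of which 10.9% were called higher and 11.7% lower). Foxa1, a pioneer factor of liver genes, rose by 0.95 ± 0.20 (adjusted p = 0.0162). Zhx2 and Zbtb20, known repressors of Afp in the adult liver, were at 8.43 and 6.07 CPM with the empty vector and at 9.23 and 5.43 CPM in RasHIGH cells and were not called. In tumour cells against stroma, 7 of 13 were higher and 6 lower in the liver (38.4% and 39.4% of all genes) and 7 of 12 and 5 in the peritoneum (39.5% and 37.1%), with Zhx2 lower at both sites (-0.34 ± 0.13 and -0.70 ± 0.14). Alb lies 14.1 kb from Afp. With the empty vector Alb was at 9.57, 0.171 and 2.11 CPM in replicates 1 to 3, a mean of 3.95 CPM, and in RasHIGH cultures it was at 0 CPM. Mean Alb was 15.3 ± 12.8 CPM in liver and 0.224 ± 0.358 CPM in peritoneal tumour cells (SD, n = 4), where Afp was at 9.56 ± 1.01 and 10.6 ± 3.1 CPM. Summed hepatocyte markers of these tumour cells were at 11.1 to 50.8 CPM in the liver and 1.32 to 10.9 CPM in the peritoneum.

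Among 13 further oncofetal and progenitor genes, 7 were tested in RasHIGH cells, with 2 higher and 1 lower than with the empty vector (median 0.32 against -0.02 over all genes, of which 10.9% were called higher and 11.7% lower). Sox9, a factor of bile duct progenitors, rose by 1.17 ± 0.34 and Krt19 by 0.56 ± 0.16, and Cd24a fell by 0.73 ± 0.18 on the log2 scale (adjusted p = 0.0471, 0.0475 and 0.0266). Sox9 was higher again in liver tumour cells than in RasHIGH cultures (1.24 ± 0.32, adjusted p = 0.013). Gpc3, glypican-3, which marks hepatoblasts and many human hepatocellular carcinomas, was at no more than 0.0125 CPM on average in each culture group and 0.0299 and 0.598 CPM in tumour cells, and at 4.72 ± 2.28 CPM in the liver and 71.8 ± 28.7 CPM in the peritoneal stroma (SD, n = 4).

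Hmga2-ps1, named as a pseudogene of Hmga2, did not keep a fixed share of the Hmga2 counts. It amounted to 1.48% to 2.53% of Hmga2 with the empty vector, 0.331% to 0.733% in RasHIGH cultures, 2.38% to 3.50% in tumour cells and 8.81% to 23.1% in stroma. In CPM it rose from 9.55 in RasHIGH cultures to 50.7 in liver tumour cells (log2 fold change 2.42 ± 0.20, adjusted p = 5.4e-05) and 45.0 in peritoneal tumour cells (2.25 ± 0.22, adjusted p = 0.000423), where Hmga2 itself did not differ beyond its error. Reads shared between Hmga2 and this copy could have been counted under either name. The noncoding gene 9230105E05Rik, which lies within Hmga2, had at most 13 counts in any library.

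The genes most like each member over the 25 libraries were found by Pearson's r of log2(CPM + 1), as a description over libraries that share groups and mice. For Igf2bp1 and Igf2bp3 r between the pair was 0.99, and Igf2bp3 also followed Ccnd1, which encodes cyclin D1 (r = 0.99). Hmga2 followed Anxa4 and Mtcl1 (r = 0.99 and 0.98) and Igf2bp2 followed Tgfa and Asap2 (r = 0.99 and 0.98), while r between Hmga2 and Igf2bp2 was 0.97. Afp had Arl2 and Prdx2 (r = 0.92 and 0.91) and Hmga1 had Rbp4 and Rpl28 (r = 0.96 and 0.95). H19 followed Gas7 and S1pr3 (r = 0.997 and 0.996), Dlk1 followed Olfml1 and Musk (r = 0.99 for both) and Epcam followed Amigo2 and Kif1a (r = 0.99 for both). Lin28b was left out, since it did not pass the filter.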

How the data were processed

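Total mRNA of 25 samples was sequenced, and the authors deposited 1 table of raw counts per gene; per the study's methods reads were aligned to mm9 with TopHat2, while the counter, its annotation and its strand setting are not given in the sources used here. The submitters' processing notes also name FastQC, Bowtie 0.12.2 and the builds mm8 and mm10. Groups were taken from the sample labels. The members and lists were chosen with earlier results of these data known, and named genes were the 10 members, up to 4 called genes of largest change per list and comparison, up to 3 neighbours on each side and the 2 closest genes by correlation. Peg3, Rian, Etv5, Cdh1 and the keratins were named after their values were seen, and a few genes that this rule names are not reported here. Genes passing filterByExpr (minimum count 10) were tested for each pair of groups with edgeR 4.0.16 (R 4.3.3; TMM, quasi-likelihood test, Benjamini-Hochberg adjustment over all genes tested), and a gene was called at an adjusted p under 0.05; the study itself used DESeq between pairs. CPM values were set on 1 TMM scale over all libraries. The fit was tested on simulated data. DESeq2 1.42.0, RLE normalization, no filter, all libraries in one fit, a replicate block, the study's thresholds and leaving out each library were alternatives. Tumour libraries with the same number came from the same mouse, so their numbers pair them (mean correlation of deviations -0.04 to 0.22). The main fits held no term for mouse and treated libraries of the same mouse as independent. The study's methods describe the libraries of the cell lines and of the tumour cells as biologically independent, without saying how the cultures were separated.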

Additional observations from a re-analysis of the deposited data

Results flagged for a closer look

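Of 31 groups of 4 libraries examined for a single library far from the others, 4 showed one, and chance gives about 1 in 20. H19 stood apart at 6.09 CPM in the peritoneal tumour cells of mouse 1 and at 0.869 CPM in the liver tumour cells of mouse 3. In the peritoneal stroma of mouse 4, Igf2bp2 stood apart at 42.1 CPM and Hmga1 at 19.1 CPM. The epithelial marker sum of that library was 11.96% of that of the tumour cells, against 7.20% to 8.30% in the other 3 mice. The part of tumour cell RNA in these values was not tested.

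The difference between liver and peritoneum was itself different in tumour cells and in stroma for 4 of 9 members by the interaction term: Afp (-1.38), Igf2bp1 (-1.11), Igf2bp3 (-0.86) and Hmga2 (-1.06, log2 scale). Of all 15331 genes tested, 6.79% were called higher and 7.50% lower. Of 16 fits without 1 library, the call was lost in 12 each for Igf2bp1 and Igf2bp3, 5 for Afp and 0 for Hmga2. Krt8, Krt18, Krt19 and Cdh1 were also called lower by this term.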

How the results depend on the processing

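The count of members called in RasLOW against the empty vector went from 1 to 2 with no filter, the replicate block, DESeq2 or the study's thresholds, to 4 with all libraries in one fit, and to 1 to 2 when 1 library was left out. In RasHIGH it went from 3 to 5 in one fit. The filter on low counts ran over all groups in that fit. Both of its counts therefore include a member that the pairwise filter had left out and that passed through groups outside the comparison. Between tumour cells of both sites the count of members called went from 0 to 1 with DESeq2 or the study's thresholds, and ranged from 0 to 1 without 1 library. The study's thresholds took stroma from 7 to 4, liver tumour cells against RasHIGH from 5 to 2 (3 to 5 without 1 library) and peritoneal tumour cells from 4 to 2 (2 to 4). The interaction went from 4 to 2 with no filter, to 6 with the replicate block, and ranged from 1 to 5 without 1 library. Of 74 values examined without 1 library, 11 changed sign, none of them called at either sign. They were Afp in RasHIGH against RasLOW (-0.31 to 0.52, and 0.098 with the replicate block), Igf2bp1 in RasLOW (-0.18 to 0.14) and Igf2bp3 in RasHIGH against the empty vector (-0.24 to 0.037), and in liver against peritoneal tumour cells Afp (-0.28 to 0.047), Hmga2 (-0.050 to 0.067) and Hmga1 (-0.21 to 0.039). Against RasHIGH they were Hmga2 in liver (-0.17 to 0.11) and peritoneal tumour cells (-0.18 to 0.098) and Igf2bp2 in peritoneal tumour cells (-0.010 to 0.24), and in the interaction H19 (-0.80 to 0.92) and Epcam (-0.33 to 0.62). Of the values of single genes under the other alternatives, 396 kept their call and direction, 15 gained a call and 16 lost it; the cause was not tested. DESeq2 moved the median of all genes by -0.317 in peritoneal and -0.250 in liver tumour cells against stroma, and by 0.119 and 0.141 in liver and peritoneal tumour cells against RasHIGH. RLE moved it by -0.139 in the peritoneum.

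Counts over all genes moved by over 1.5 times as follows. RasLOW against the empty vector went from 734 to 2440 in one fit, 295 with the replicate block and 1639 with DESeq2; RasHIGH went from 2789 to 4347 in one fit and 1190 with the study's thresholds. RasHIGH against RasLOW went from 9 to 77 with no filter, 917 in one fit, 0 with the block, 414 with DESeq2 and 253 with the study's thresholds. Tumour cells between sites went from 419 to 102 with the block and 1260 with DESeq2, and the interaction from 2191 to 1180 in one fit. The study's thresholds took stroma from 4926 to 2107, tumour cells against stroma from 11376 to 6437 in the liver and 11168 to 6377 in the peritoneum, and tumour cells against RasHIGH from 5851 to 3050 and 4846 to 2571. Without 1 library the count ranged from 148 (without empty vector replicate 2) to 2340 (RasLOW replicate 2) in RasLOW, from 1517 (empty vector replicate 2) to 3896 (RasHIGH replicate 1) in RasHIGH, from 0 (each library but RasLOW replicate 1) to 16 (RasLOW replicate 1) between them, from 41 (liver tumour cells of mouse 2) to 884 (peritoneal tumour cells of mouse 1) between sites, and from 3154 (RasHIGH replicate 2) to 7050 (RasHIGH replicate 1) in peritoneal tumour cells against RasHIGH. Culture numbers mark no shared origin (mean correlations -0.13, 0.06 and -0.30), and no paired fit was possible for tumour cells against RasHIGH. Levels under 3 counts per library were not detectable.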
